A study of Mus musculus with 5 samples.

Results

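The members described here are the immunoglobulin variable (V) segments detected, that is, all genes with a symbol starting with Ighv or Igkv and a count of 1 or more summed over the 5 libraries. This left 160 members of 345 segments listed and of 46983 genes in all, 81 in Ighv and 79 in Igkv. They were thus chosen by their summed count, so detection is not a result. At that threshold 18 members had a summed count of 1 and 17 a summed count of 2, and 185 listed segments had 0. The members held 2623 counts in all.

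V segments are the gene pieces that a developing B cell joins to a joining segment, and in the heavy chain also to a diversity segment, to build the antigen-binding part of an antibody. Each B cell then transcribes its chosen heavy chain segment, from the Ighv cluster, and its chosen light chain segment, in mice mostly from the kappa cluster Igkv, spliced to a constant region. Plasma cells carry these transcripts in very large amounts, and macrophages, which do not rearrange these loci, are not a textbook source of them. The spread of reads over segments therefore describes how varied the antibody transcripts of a sample are.

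The RNA came from orthotopic tumours of EO771, a carcinoma line from mouse breast, in mice labelled C57/BL6. In the Treg-ablated group (2 libraries) diphtheria toxin was given in 2 doses of 50 µg/kg to remove regulatory T cells and the sort followed on day 4, while the controls (3 libraries) received no treatment. The allele that makes Treg cells sensitive to the toxin, the age of the mice and any pooling of animals are not given in the sources used here, and toxin exposure and Treg loss cannot be told apart. Both groups were labelled as tumour-associated macrophages sorted as CD45+ CD11b+ Ly6G- F4/80+ cells. Nothing states that the libraries of a group were separate animals, so every p-value here rests on library-to-library spread that could be technical.

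Library totals ran from 13122668 to 20156835 counts, and a count of 1 was worth 0.0501 to 0.0754 CPM (counts scaled to library size by TMM, per 1e+06). The sort markers were present but low, with Itgam (CD11b) at 12.2 to 19.0 CPM and Adgre1 (F4/80) at 5.73 to 9.87 CPM, against 7850 to 11750 CPM for the fibronectin gene Fn1. Fn1, listed here as a fibroblast marker, was thus far above the sort markers, and no level below is assigned to a cell type. Col3a1, also listed as such, was at 7467 to 9556 CPM. The others listed were lower, with Dcn at 719 to 990, Col1a1 at 464 to 760 and Pdgfra at 77.7 to 101 CPM. Of 6 macrophage markers 4 fell and 0 rose, their summed level being 70.8 and 78.1 CPM after ablation and 123 to 134 CPM in controls. Of 5 T cell markers 4 rose, from 6.99 to 8.71 CPM summed in controls to 24.5 and 25.8 CPM. Across all genes tested with edgeR 13.5% rose and 12.3% fell. The part of these marker shifts in the results below was not tested.

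The V exons of 3 pairs are shown as examples, each pair less alike than the median over all members given below. The first is Igkv10-96, the member with the most counts, at chr6:68631963-68632260 (GRCm38, minus strand), beside its nearest relative Igkv10-94 at chr6:68704508-68704805 (minus strand). They differ at 16 of 298 bases. Capitals mark the bases that differ within a pair.
Igkv10-96: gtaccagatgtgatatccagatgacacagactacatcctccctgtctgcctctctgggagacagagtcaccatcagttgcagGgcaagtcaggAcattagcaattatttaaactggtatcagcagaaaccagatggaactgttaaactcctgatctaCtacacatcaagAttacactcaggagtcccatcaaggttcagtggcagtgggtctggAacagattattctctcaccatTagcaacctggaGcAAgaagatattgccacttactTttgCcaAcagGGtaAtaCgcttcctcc
Igkv10-94: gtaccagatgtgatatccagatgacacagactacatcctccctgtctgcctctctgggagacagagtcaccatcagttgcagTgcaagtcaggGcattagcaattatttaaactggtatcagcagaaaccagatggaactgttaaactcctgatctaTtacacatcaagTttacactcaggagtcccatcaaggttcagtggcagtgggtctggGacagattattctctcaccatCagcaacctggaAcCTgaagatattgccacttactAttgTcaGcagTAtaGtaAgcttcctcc

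The second is Ighv1-12, the segment with the most counts among those seen only after Treg ablation, at chr12:114615855-114616154 (minus strand). Its nearest relative is Ighv1-15 at chr12:114657358-114657657 (minus strand), which differs at 35 of 305 bases. The first 300 bases, which hold all of these differences, are shown.
Ighv1-12: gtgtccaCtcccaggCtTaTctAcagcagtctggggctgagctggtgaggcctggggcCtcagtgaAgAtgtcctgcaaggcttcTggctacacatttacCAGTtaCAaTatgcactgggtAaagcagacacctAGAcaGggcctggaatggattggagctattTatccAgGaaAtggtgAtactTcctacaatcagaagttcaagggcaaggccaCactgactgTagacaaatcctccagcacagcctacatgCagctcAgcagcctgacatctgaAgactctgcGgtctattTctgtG
Ighv1-15: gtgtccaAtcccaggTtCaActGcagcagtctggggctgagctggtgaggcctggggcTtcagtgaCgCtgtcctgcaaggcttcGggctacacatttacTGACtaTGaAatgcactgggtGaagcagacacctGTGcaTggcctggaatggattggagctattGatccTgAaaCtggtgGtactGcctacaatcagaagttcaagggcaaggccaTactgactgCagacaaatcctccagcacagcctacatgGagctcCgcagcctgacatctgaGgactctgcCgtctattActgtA

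The third is Igkv4-57-1, the segment with the most counts among those seen only in controls, at chr6:69544368-69544667 (minus strand). Its nearest relative Igkv4-78, at chr6:69059699-69059998 (minus strand), differs at 22 of 309 bases and had 0 counts in all 5 libraries. The first 300 bases, with 20 of these differences, are shown.
Igkv4-57-1: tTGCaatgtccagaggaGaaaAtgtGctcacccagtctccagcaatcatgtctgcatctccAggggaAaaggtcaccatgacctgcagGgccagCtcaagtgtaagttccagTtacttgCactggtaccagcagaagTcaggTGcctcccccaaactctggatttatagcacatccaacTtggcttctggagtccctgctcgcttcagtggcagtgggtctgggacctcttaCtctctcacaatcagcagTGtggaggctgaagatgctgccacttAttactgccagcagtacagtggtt
Igkv4-78: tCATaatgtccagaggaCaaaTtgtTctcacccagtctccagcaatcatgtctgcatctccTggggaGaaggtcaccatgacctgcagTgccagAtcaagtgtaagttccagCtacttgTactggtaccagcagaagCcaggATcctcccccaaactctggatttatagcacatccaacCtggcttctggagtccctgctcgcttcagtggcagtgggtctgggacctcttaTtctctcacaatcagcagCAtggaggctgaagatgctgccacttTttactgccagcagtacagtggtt

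These sequences are the coding parts of the V exons in GENCODE M21. Across the 160 members the nearest other segment of the same locus had a median identity of 95.3% (range 74.9 to 99.0). In 130 members every stretch of 125 bases, the read length, was found in no other listed segment, and in 30 members some stretches were shared. Igkv5-43 and Igkv5-45, for example, differ at 3 bases, and 72.9% of the stretches of Igkv5-43 were its own. For Igkv10-96 and Igkv10-94, shown above, these shares were 97.0% and 96.9%. Counts of such members are uncertain, because shared reads could be lost or moved between copies.

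Summed V segment transcripts were more abundant after Treg ablation, and both loci contributed. The members held 746 and 716 counts in Treg-ablated replicates 1 and 2, against 367, 428 and 366 counts in control replicates 1, 2 and 3. In CPM these were 47.0 and 54.0 after ablation and 24.7, 21.4 and 25.5 in controls, so both ablated libraries lay above all controls. The means were 50.5 ± 4.93 (SD, n = 2) and 23.9 ± 2.15 CPM (SD, n = 3), a ratio of 2.12. With counts pooled per group the ratio was 2.13, with an exact 95% interval of 1.97 to 2.30 that covers counting error only. No p is given for a sum over members, which were chosen with these values known. In bulk RNA a larger number of antibody-making cells and more transcript per cell cannot be told apart.

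Ighv segments summed to 19.6 and 22.6 CPM after ablation and to 10.4, 9.77 and 12.5 CPM in controls, a ratio of 1.93. Igkv segments summed to 27.4 and 31.5 CPM against 14.2, 11.7 and 12.96 CPM, a ratio of 2.27. The groups did not overlap in either locus. Kappa counts per heavy chain count were 1.40 in both ablated libraries and 1.37, 1.20 and 1.03 in controls.

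More different segments were seen after ablation. Treg-ablated replicates 1 and 2 showed 100 and 107 segments, and control replicates 1, 2 and 3 showed 58, 66 and 63. Since more counts reveal more segments, each library was brought to 366 counts, the smallest member total, by exact rarefaction, the number of segments expected in a draw of that size. The ablated libraries then showed 83.7 and 91.4 segments and the controls 58.0, 64.0 and 63.0, a difference in means of 25.9 segments. A difference therefore remained at equal counts. At 91 counts the difference was 10.3 segments.

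**Figure D1:**
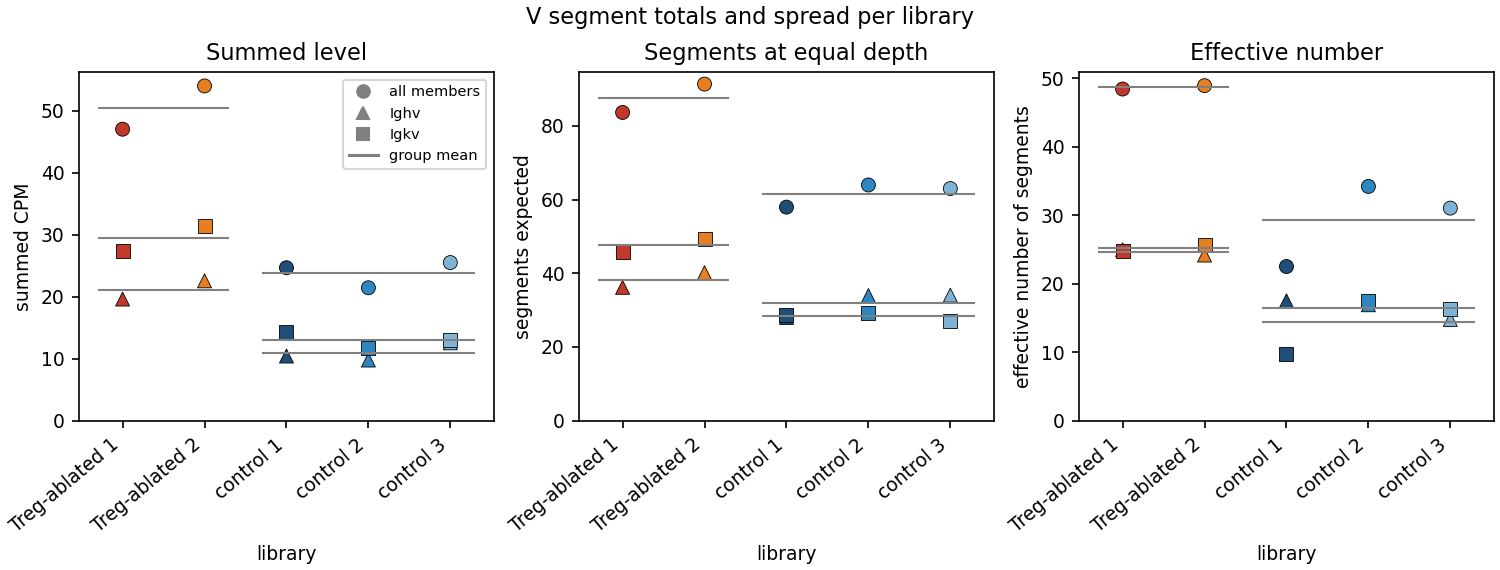
Summed CPM, segments expected at equal depth (366 counts for all members, 155 for Ighv and 186 for Igkv) and effective number of segments, for each library on the horizontal axis. Circles are all members, triangles Ighv, squares Igkv and grey lines group means. For all members both Treg-ablated libraries lie above the 3 controls in each panel.

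The counts were also spread more evenly over segments. The effective number of segments, the inverse Simpson index, is the number of equally used segments that would give the same concentration. It was 48.5 and 49.0 after ablation and 22.5, 34.2 and 31.1 in controls, a difference in means of 19.5. The leading segment took 5.50% and 6.56% of the V counts in the ablated libraries. In control replicates 1, 2 and 3 it took 14.99%, 8.41% and 8.20%. The 10 leading segments together took 37.0% and 37.6% after ablation and 54.5%, 44.2% and 49.7% in controls. In control replicate 1 the leader was Igkv10-96 with 55 counts, and its kappa counts alone had an effective number of 9.72, the lowest of the 5 libraries. With Igkv10-96 left out of all libraries the difference in effective number was 19.1.

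The heavy and kappa chains differed in the number of segments seen once libraries of a group were pooled. Pooled kappa counts, at 631 counts per group, showed 68.2 segments after ablation and 52.0 in controls. Pooled heavy chain counts, at 530 counts per group, showed 57.0 after ablation and 62.0 in controls, the opposite order. Per library, at 155 counts, the heavy chain numbers were 36.2 and 40.2 after ablation and 28.0, 33.9 and 34.1 in controls. Each control library thus showed fewer heavy chain segments, but the 3 controls together showed more than the 2 ablated libraries together. The pools joined 3 control libraries but 2 ablated ones, and the part of this in the contrast between chains was not tested. The heavy chain effective number of pooled counts was 29.4 after ablation and 25.2 in controls, and that of kappa 31.8 and 19.2. It was thus higher after ablation in both chains.

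**Figure D2:**
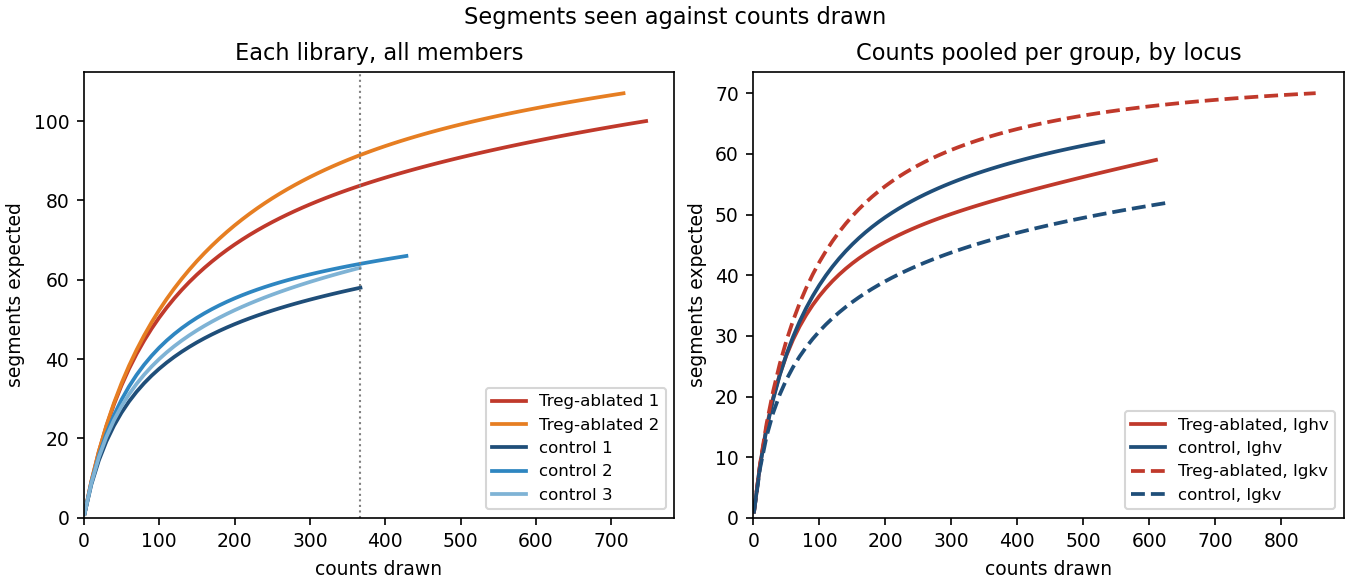
Segments expected (vertical axis) against counts drawn (horizontal axis), for each library on the left and for counts pooled per group and split by locus on the right. The dotted line marks 366 counts. Both Treg-ablated curves run above the controls on the left. On the right the Treg-ablated curve lies below that of controls at 530 counts for Ighv and above it at 631 counts for Igkv.

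Libraries shared only part of their segments. Of the 160 members 14 were seen in all 5 libraries and these held 29.4% of the counts, while 48 were seen in 1 library and held 6.21%. The ablated libraries had 78 segments in common, 78.0% of those in replicate 1 and 72.9% of those in replicate 2. Pairs of controls had 30 to 34 in common, between 45.5% and 58.6% of either library. These shared numbers were not brought to equal counts, and the ablated libraries held 746 and 716 V counts against 366 to 428 in controls. The part of depth in this difference was not tested. Similarity of use was measured by the Morisita-Horn index, in the form corrected for sampling, which is 1 for the same proportions and 0 for none shared. It was 0.618 for the ablated pair and 0.423, 0.656 and 0.481 for pairs of controls. Between groups it ran from 0.377 to 0.582, below the ablated pair and overlapping the pairs of controls.

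Pooled by group, 129 members were seen after ablation and 114 in controls, from 1462 and 1161 counts and not at equal counts. The 83 seen in both were 64.3% of the former and 72.8% of the latter. The 46 seen only after ablation held 25.2% of the ablated counts, and the 31 seen only in controls held 15.3% of the control counts. Of 76 members with 10 or more counts, 10 were seen only after ablation, 8 of them kappa segments, and 3 only in controls. Seen in both ablated libraries and in no control were 23 members, and in all 3 controls and no ablated library 1. Of all genes with a summed count no larger than that of the leading member, 1.77% showed the first pattern and 1.16% the second, which asks for 3 libraries where the first asks for 2.

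**Figure D3:**
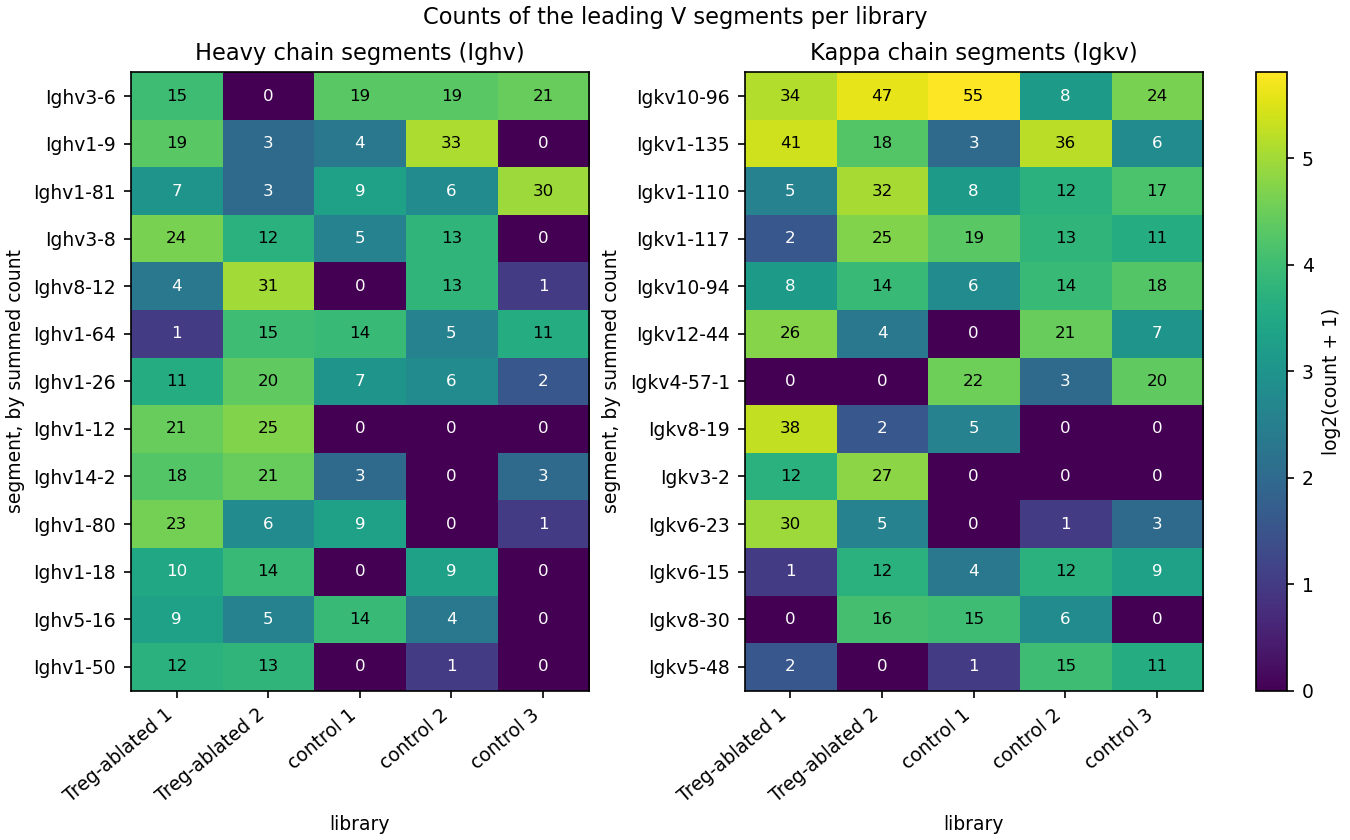
Counts of the 26 named members (rows) in each library (columns), heavy chain on the left and kappa chain on the right. Named are those past the low-count filter, the 12 of each locus with the most counts and the leader of each library. The count is printed in each cell and colour gives log2(count + 1). Ighv1-12 and Igkv3-2 have counts only in the Treg-ablated libraries and Igkv4-57-1 only in the controls. In CPM 16 of the 26 overlap between groups, 8 lie above all controls and 2 below. Of all genes with a summed count no larger than that of the leading member, 14.4% lie above and 6.4% below.

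Single segments were tested with edgeR over all genes. Only 18 members, 8 heavy and 10 kappa, passed the filter on low counts. Of the 18, 5 were higher after ablation, 1 was lower and 12 did not pass. Of all 14580 genes tested 13.5% were called higher and 12.3% lower. DESeq2, which gave an adjusted p for 16 members, called 2 higher and 1 lower. Without Treg-ablated replicate 1 or 2, edgeR tested 29 and 31 members, called 8 and 10 higher and called 2 lower in each case. Without control replicate 3, 4 were higher and 0 lower. The 5 higher members reached the level the filter asks for in the ablated libraries alone, and the lower member in controls alone. They had to differ to be tested, so their count and the adjusted p-values below are descriptions. In the edgeR fit without that filter all 6 were called as well (adjusted p between 7.82e-16 and 0.00252). That fit used the same counts and also called members seen in 1 ablated library only, so it adds no separate support.

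Heavy chain segments made up 4 of the 5 higher members. Ighv1-12 (ENSMUSG00000095416, chromosome 12, 114615850 to 114616318), whose sequence is shown above, had 21 and 25 counts in the ablated libraries and 0 in every control. With the pooled control count set to a floor of 3, it was 25.9-fold higher (edgeR adjusted p = 0.000773). That fold leaves out the counting error of the ablated libraries. The exact interval of the pooled ratio, for counting error only, had a lower limit of 20.24. The separation of the groups was complete. Ighv14-2 (ENSMUSG00000095583, chromosome 12, 113994469 to 113994898) had 18 and 21 counts against 3, 0 and 3, which is 1.36 ± 0.318 against 0.137 ± 0.119 CPM. Its log2 fold change was 3.37 (SE 0.60, edgeR adjusted p = 0.00347).

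Ighv1-50 (ENSMUSG00000094198, chromosome 12, 115119748 to 115120219) had 12 and 13 counts after ablation and 0, 1 and 0 in controls. Its pooled control count was 1, and its edgeR adjusted p was 0.00175. Ighv1-26 (ENSMUSG00000094546, chromosome 12, 114788372 to 114788805) had 11 and 20 counts against 7, 6 and 2. Its log2 fold change of 1.79 (SE 0.52, edgeR adjusted p = 0.0287) was the smallest of the 5. When Treg-ablated replicate 2 was left out the log2 fold change was 1.17 and the call was lost (edgeR adjusted p = 0.265). The call was also lost without control replicate 2 (log2 fold change 1.77, adjusted p = 0.102) or 3 (1.498, adjusted p = 0.0515), and with DESeq2 (1.83, adjusted p = 0.0955).

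The kappa segment called higher was Igkv3-2 (ENSMUSG00000095351, chromosome 6, 70698449 to 70699067), with 12 and 27 counts after ablation and 0 in every control. By the same floor it was 22.0-fold higher (edgeR adjusted p = 0.00285), and the exact lower limit of its pooled ratio was 17.03. DESeq2 gave no adjusted p for Igkv3-2 or Ighv1-50. Igkv3-2 did not pass the filter without Treg-ablated replicate 2, nor did Ighv1-50 without either ablated library. The segment called lower was Igkv4-57-1 (ENSMUSG00000076555, chromosome 6, 69544359 to 69544907), with 0 counts in both ablated libraries and 22, 3 and 20 in controls. With the pooled ablated count set to 3, it was 8.88-fold lower (edgeR adjusted p = 0.0287). The exact upper limit of its pooled ratio of ablated to control was 0.1444. Control replicate 2, with 3 counts, stood well below the other controls, and without control replicate 1 or control replicate 3 the segment did not pass the filter.

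The 12 that did not pass included the segments with the most counts. Igkv10-96 had 34 and 47 counts after ablation and 55, 8 and 24 in controls, or 2.84 ± 0.991 against 1.92 ± 1.66 CPM (log2 fold change 0.63, SE 0.58, edgeR adjusted p = 0.456). Control replicate 1 alone lay above both ablated libraries, and without it the adjusted p was 0.0478. Igkv1-135 had 41 and 18 counts against 3, 36 and 6 (fold change 2.23, edgeR adjusted p = 0.174), and without control replicate 2 the log2 fold change was 2.67 (adjusted p = 0.0228). In both segments a single control library overlapped the ablated ones. Igkv10-94, the relative of Igkv10-96 shown above, had 8 and 14 counts against 6, 14 and 18, with a log2 fold change of -0.03 (SE 0.50).

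Other kappa segments varied widely between libraries of a group. Igkv1-117 had 2 and 25 counts after ablation and 19, 13 and 11 in controls, and its log2 fold change of 0.10 became -2.73 (edgeR adjusted p = 0.0406) without Treg-ablated replicate 2. Igkv1-110 had 5 and 32 counts against 8, 12 and 17, and its log2 fold change of 0.77 became 1.67 (edgeR adjusted p = 0.0162) without Treg-ablated replicate 1. The ablated libraries thus lay on opposite sides of the controls for both. Igkv12-44 had 26 and 4 counts against 0, 21 and 7, and Igkv8-30 had 0 and 16 against 15, 6 and 0. Igkv5-48 had 2 and 0 counts against 1, 15 and 11 (log2 fold change -2.85, SE 1.10, edgeR adjusted p = 0.0797), and without control replicate 1 it was called lower (adjusted p = 0.0149).

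Among heavy chain segments Ighv3-6 (ENSMUSG00000076672, chromosome 12, 114288152 to 114288582) was even across controls, with 19, 19 and 21 counts, but had 15 and 0 after ablation. Its log2 fold change was -1.23 (SE 0.65, edgeR adjusted p = 0.189). Without Treg-ablated replicate 1, which held all its ablated counts, it was called lower (adjusted p = 0.00417). Ighv3-8 had 24 and 12 counts against 5, 13 and 0 (log2 fold change 1.74, SE 0.62, edgeR adjusted p = 0.0608), and without Treg-ablated replicate 2 it was called higher (adjusted p = 0.0468). Ighv1-9 had 19 and 3 counts against 4, 33 and 0, and Ighv1-64 had 1 and 15 against 14, 5 and 11, and the groups overlapped for both. Within a group, segments varied far more than most genes did. The median dispersion, edgeR's measure of variance beyond counting noise, was 0.123 over the 18 members tested and 0.0108 over the 2475 genes tested in the same range of level.

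Of the 26 named members 8 did not pass the low-count filter. Igkv8-19 had 38 and 2 counts after ablation and 5, 0 and 0 in controls, and Igkv6-23 had 30 and 5 against 0, 1 and 3. Ighv8-12 had 4 and 31 counts against 0, 13 and 1, and Ighv1-80 had 23 and 6 against 9, 0 and 1. These 4 owed most of their counts to 1 ablated library. Ighv1-81 had 7 and 3 counts against 9, 6 and 30, most of them in control replicate 3. Ighv1-18 had 10 and 14 counts against 0, 9 and 0, Ighv5-16 had 9 and 5 against 14, 4 and 0, and Igkv6-15 had 1 and 12 against 4, 12 and 9. Over the 26 named members, both ablated libraries lay above all controls in 8, below all controls in 2 and overlapped them in 16. Among all genes with a summed count no larger than that of the leading member, 14.4% lay above and 6.4% below. Ighv1-50 and Igkv5-48 were named only because they passed the filter, each through 1 group alone, so these numbers are descriptions.

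Over all 160 members, both ablated libraries lay above all controls in CPM in 42, 15 heavy and 27 kappa, and below all in 2. Of all genes with 1 or more counts, 20.3% lay above and 16.5% below in this way. Among genes with a summed count no larger than that of the leading member the shares were 14.4% and 6.4%. The members' 42 of 160 is a larger share than either background and their 2 of 160 a smaller one. When edgeR was run without the low-count filter, on 25940 genes, 40 members were called higher, 6 lower and 114 did not pass. Of all genes in that fit 8.03% were called higher and 9.01% lower. Of the 40, 20 had 0 counts in all controls, 11 had groups that overlapped and 5 were seen in 1 ablated library only.

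Several segments outside the 26, chosen here after their values were seen, were also split between groups. Igkv14-126 had 8 and 23 counts after ablation, Ighv1-42 had 14 and 5, Igkv6-13 had 12 and 5, and Igkv3-7 had 8 and 7, all with 0 in every control. With the same floor for the pooled controls they were 17.5-fold, 10.7-fold, 9.58-fold and 8.45-fold higher. The exact lower limits of their pooled ratios were 13.37, 7.886, 6.973 and 6.061. In the other direction Ighv5-6 had 16, 10 and 0 counts in controls and Ighv5-9-1 had 19 counts in control replicate 3 alone, both with 0 after ablation. Neither was seen in all 3 controls.

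Segments are named by families of related sequence, the number before the hyphen. Of 31 families with a member, both ablated libraries lay above all controls in 14, below in 0 and overlapped in 17. Of all single genes with 1 or more counts 20.3% lay above and 16.5% below, though a family can sum several segments. Ighv1, the largest heavy chain family with 40 members of 93 listed, summed to 12.04 and 13.7 CPM after ablation and 4.64, 5.41 and 6.34 CPM in controls, a ratio of 2.35. It held 61.0% of the heavy chain counts after ablation and 50.6% in controls. The kappa family Igkv3, with 8 members of 13 listed, had 40 and 57 counts against 8, 4 and 7, a CPM ratio of 8.35. It made up 11.4% of kappa counts after ablation and 3.01% in controls, and Igkv3-2 was its member called higher. Ighv14, the family of Ighv14-2, had 40 and 26 counts against 11, 7 and 3, a CPM ratio of 5.18. Igkv2 had 17 and 11 counts against 0, 0 and 1.

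Not all families took part. Ighv5 had 14 and 11 counts after ablation and 32, 17 and 33 in controls, or 0.883 and 0.830 CPM against 2.15, 0.851 and 2.30 CPM, so the groups overlapped through control replicate 2. It made up 4.10% of heavy chain counts after ablation and 15.5% in controls. Igkv10 had 42 and 61 counts against 61, 25 and 42, and Ighv3 had 40 and 13 against 28, 35 and 21. Both overlapped between groups.

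**Figure D4:**
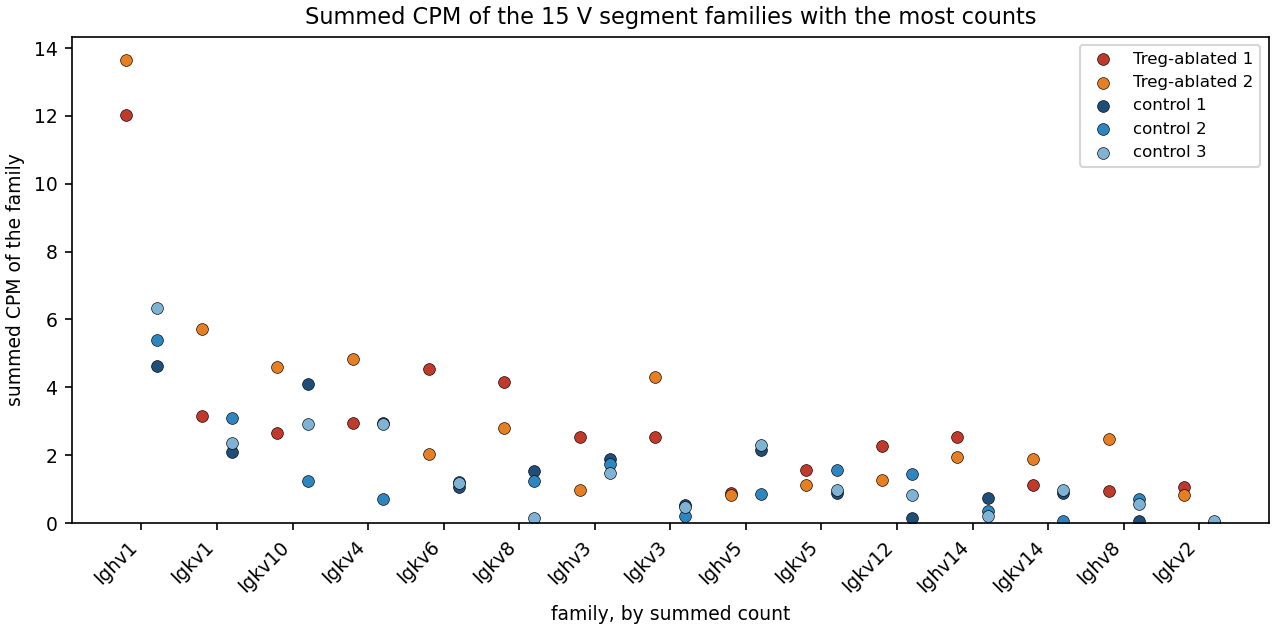
Summed CPM (vertical axis) of the 15 V segment families with the most counts (horizontal axis, in order of summed count), with 1 point per library, Treg-ablated in red and orange and controls in blues. Igkv3, Ighv14 and Ighv1 show both Treg-ablated libraries above all 3 controls, whereas Ighv5, Ighv3 and Igkv10 overlap.

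Position along the locus was examined with the listed segments of each locus divided by position into 4 stretches with like numbers of segments, the first nearest the constant region genes. The first stretch of Igkv (chromosome 6, 69900424 to 70704177) held 44.4% and 30.2% of kappa counts after ablation and 22.6%, 24.9% and 13.98% in controls. The second stretch held 16.6% and 16.8% against 25.9%, 29.6% and 27.4%. The share of the stretch nearest the constant gene was thus higher, and that of the next lower, in both ablated libraries than in any control. In Treg-ablated replicate 1, Igkv8-19 and Igkv6-23, both in the first stretch, held 38 and 30 of 435 kappa counts. In the other stretches of Igkv the groups overlapped, and shares within a locus depend on each other. In Ighv the third stretch held 23.5% and 24.8% against 9.68%, 16.9% and 13.3%. The first stretch held 17.4% and 18.4% against 32.3%, 12.3% and 23.9%, where the groups overlapped, as they did in the remaining Ighv stretches. Segments annotated as functional genes made up nearly all of the signal. Of 215 such segments listed 150 were seen, with 2607 counts, and of 130 pseudogenes 10 were seen, with 16 counts.

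The V segments were set against the constant region genes, to which they are spliced in a mature transcript. Heavy chain V counts per 100 heavy constant counts were 29.1 and 25.5 after ablation and 41.3, 43.8 and 45.8 in controls. Kappa V counts per 100 Igkc counts were 84.3 and 97.2 against 125, 118 and 103. Constant region counts thus differed between groups by more than V counts did, in both chains. Igkc, the kappa constant gene, had 516 and 429 counts against 170, 197 and 181 (log2 fold change 1.53, edgeR adjusted p = 2.63e-05).

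The heavy constant genes, which mark the antibody class, did not move together. Ighm (IgM) had 256 and 350 counts against 29, 51 and 26, Ighg2c 307 and 309 against 2, 12 and 5, and Ighg2b 228 and 239 against 16, 9 and 10. All 3 were called higher, with log2 fold changes of 3.29, 5.76 and 4.48. Igha, the constant gene of IgA, had 219 and 214 counts against 328, 371 and 351 and was called lower (log2 fold change -0.53, edgeR adjusted p = 0.0158). In every control library Igha had more counts than the other heavy constant genes together. Of 12 constant genes 8 were tested, of which 7 were higher and 1 lower, against 13.5% and 12.3% of all genes tested.

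Genes of the B cell lineage were counted from lists chosen with earlier results known, to be read beside the 13.5% of all genes tested that were called higher and the 12.3% called lower. Of 15 B cell genes 11 were tested, of which 6 rose, 1 fell and 4 did not pass. Ms4a1 (CD20) had 11 and 23 counts after ablation and 0 in controls, and Cd22, an inhibitory receptor of B cells, had 26 and 25 against 2, 3 and 3. The member that fell was Cd72, with 30 and 32 counts against 70, 72 and 62. Of 10 plasma cell genes 8 were tested, of which 4 rose, 1 fell and 3 did not pass. Jchain, which links IgA and IgM units, had 151 and 142 counts against 89, 82 and 69 (log2 fold change 1.04), and Mzb1, a chaperone of antibody assembly, 26 and 29 against 6, 7 and 6 (log2 fold change 2.27). Sdc1 (CD138) fell, from 4858, 6733 and 5069 counts to 4174 and 3229.

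The summed level of 6 B cell markers was 9.27 and 14.3 CPM after ablation and 3.56, 3.51 and 4.81 CPM in controls, in the same order as summed V segment CPM between groups. That of 5 plasma cell markers was 277 and 259 CPM against 334, 343 and 360 CPM. Sdc1 alone held most of this sum, at 263 and 244 CPM against 326, 337 and 353 CPM. Jchain, Mzb1 and Prdm1 instead lay higher in both ablated libraries than in any control. Among these markers the sum thus gives the direction of Sdc1 only. Tnfrsf17 had 1 count in all 5 libraries together. Of the other plasma cell genes listed, Xbp1 and Fkbp11 also lay below all controls in CPM. Neither was called (edgeR adjusted p = 0.0749 and 0.214). Pou2af1, Irf4 and Derl3 lay above all controls. The part of these cell type levels in the V segment results was not tested. Over the 7 lists together 29 of 58 genes were tested, with 17 higher and 3 lower against the same 13.5% and 12.3% of all genes tested, and their median log2 fold change was 1.32 against -0.01 for all genes tested.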

How the data were processed

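RNA-seq gene counts were analysed for 2 Treg-ablated and 3 control libraries, grouped by sample title. Replicate numbers are those of the titles, since the file names number the Treg-ablated libraries 2 and 3. The deposited values are raw fragment counts per gene, made by the authors with featureCounts 1.6.2 on GRCm38 with an Ensembl 83 annotation that had been filtered, per the file headers. The recorded command sets no option for strand, for fragments with several matches or for fragments overlapping several genes, so counts of near-identical segments are uncertain. Trimmomatic 0.33, FastQC 0.11.5, DESeq2 1.16.1 and Subread 1.6.2 stand in the submitters' processing notes.

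Members and gene lists were chosen with earlier results of these data known. edgeR 4.0.16 (R 4.3.3) ran its quasi-likelihood F test on the 14580 genes left by filterByExpr, after TMM scaling and without a block, with Benjamini-Hochberg adjustment over all genes and a threshold of 0.05. SEs are the size of the log2 fold change over the root of F, and values after ± are SDs over 2 Treg-ablated or 3 control libraries. CPM are counts over the TMM-scaled library size, times 1e+06. A floor of 3 counts in a library corresponds to 0.150 to 0.226 CPM. Intervals cover counting error only, and folds from a floor leave out the counting error of the other group. Segments seen were rarefied without random draws, and the effective number is the unbiased inverse Simpson index. The scripts were tested on simulated data. In the edgeR test 7.49% of the calls were unchanged genes. It put changes only into genes above a set mean level, which some tested members do not reach. The test of the effective number used segments of equal use, unlike these counts.

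Named members are those that passed the filter, the 12 of each locus with the largest summed counts and the leading member of each library, 26 in all. V exons were compared through GENCODE M21 transcripts, which were found for all 345 segments, in place of RefSeq promoters and proteins. The alternatives tried were size factors by RLE, plain library size, no low-count filter, DESeq2 1.42.0, the replicate number as a block, leaving out each library, each locus alone, no pseudogenes, no leading member, other depths and another index. Robust dispersions were added after seeing the data.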

Additional observations from a re-analysis of the deposited data

How the results depend on the processing

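Of 63 alternative values of the comparisons 46 stayed within the limits set for them, and none turned the direction of summed CPM, segments per library at equal depth or effective number. The 5 members called higher became 40 without the low-count filter, 2 with DESeq2 and 4 to 10 when 1 library was left out, and the 1 called lower became 6 without the filter and 0 to 2 with a library left out. The 17 pathway genes called higher became 9 with DESeq2 and 11 to 19 with a library left out. The difference of 25.9 segments at equal depth was 6.16 for Ighv, 19.3 for Igkv, 10.3 at a depth of 91 counts and 10.5 with counts pooled per group, and 22.0 to 29.7 with a library left out. The settings for 1 locus or for 91 counts use fewer segments or counts, and for the pooled counts the cause was not tested. The difference of 19.5 in effective number was 8.18 for Ighv, 10.8 for Igkv and 25.6 by the exponential of the Shannon entropy. Over 66 combinations of the 6 called members with an alternative, 55 kept the call, 4 lost it (all Ighv1-26) and 7 gave no adjusted p. Those 7 were Ighv1-50 without either ablated library or with DESeq2, Igkv3-2 without Treg-ablated replicate 2 or with DESeq2, and Igkv4-57-1 without control replicate 1 or 3. With a library left out, the log2 fold change of members not called ran from -2.73 to 1.10 for Igkv1-117, -1.24 to 1.67 for Igkv1-110, -0.61 to 0.44 for Igkv10-94, -0.88 to 1.54 for Igkv12-44, -5.83 to 1.48 for Igkv8-30, -1.66 to 0.71 for Ighv1-9 and -3.14 to 0.87 for Ighv1-64. Leaving out a Treg-ablated library leaves 1, assumed to vary like the controls. Most members had too few counts for a test, and a segment at 0 may have been below detection at this depth.

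Whether the replicate numbers pair the libraries could not be told. Deviations from group means of same-numbered libraries correlated at -0.23 and -0.02. With 2 ablated libraries these deviations are mirror images of each other, so the correlations cannot decide it. With the replicate number as a block, 7 members were higher, 1 lower and 19 pathway genes higher. Igkv1-110 and Ighv3-8 then passed (edgeR adjusted p = 0.0495 for each). The log2 fold changes of 5 members turned sign under the block, to -0.0069 for Igkv1-117, 0.49 for Igkv10-94, -0.14 for Igkv8-30, -0.38 for Ighv1-9 and 0.0050 for Ighv1-64, none past the threshold. The cause was not tested.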

Other observations

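Lambda light chain segments, outside the heavy and kappa members, were few. Iglv1, the lambda V segment with the most counts, had 21 and 31 counts after ablation and 5, 9 and 21 in controls (log2 fold change 1.32, edgeR adjusted p = 0.0775), and control replicate 3 reached the lower of the ablated libraries in counts. Iglv2 had 1 and 4 counts against 0 in every control. Iglv3 had 0 and 1 counts against 10, 0 and 8, most of them in controls. Joining segments were near the limit of detection, with Ighj4 at 3 and 3 counts against 0, 1 and 0 and Ighj2 at 2 and 3 against 3, 6 and 1.

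The recombinase genes Rag1 and Rag2, which cut V segments during B cell development, had 1 count each over the 5 libraries. Dntt, which adds bases at the joints, had 0 after ablation and 0, 1 and 2 counts in controls. Vpreb1, part of the surrogate light chain of B cell precursors, had 9 and 7 counts against 6, 12 and 6, and Vpreb2 had 0 in all. None of these recombination or surrogate light chain genes passed the low-count filter. Ung, a repair enzyme that also acts in class switching, was tested and did not pass, with 282 and 198 counts against 238, 365 and 253 (log2 fold change -0.08, edgeR adjusted p = 0.643).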
